A study of Mus musculus with 18 samples.

Results

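Alb, Afp, Afm, Gc and Ttr encode 5 carrier proteins that the liver secretes into plasma. They were chosen by name, after the large share of liver counts taken by Alb had been seen in these libraries, and they are 5 of the 32285 genes in the count table. The values of Alb that prompted the choice are therefore given as a description without a test. Alb encodes albumin, the main plasma protein, which carries fatty acids, bilirubin and many drugs. Afp encodes alpha-fetoprotein, which takes the place of albumin in the fetus and is silenced in liver after birth. Afm encodes afamin, a carrier of vitamin E and of Wnt proteins, and Gc encodes the vitamin D binding protein, which also binds actin. These 4 genes arose from one ancestral gene by duplication. Ttr encodes transthyretin, which carries thyroxine and, bound to Rbp4, retinol. Ttr is not a relative of the albumin genes by sequence and shares with them synthesis in hepatocytes.

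The 18 liver libraries fall into 3 groups of 6, which the submitters describe as biological replicates. Space mice were 10 weeks old. They came from germline stem (GS) cells, spermatogonial stem cells kept in culture, after these had spent 6 months frozen on board the International Space Station (ISS). Ground mice were of the same age and came from GS cells kept frozen on Earth over the same period. The GS cells came from testes of newborn DBA/2 mice that, by the methods of the study, carried an EGFP transgene, and they were transplanted into testes of infertile W mice housed with C57BL/6 females. BDF1 mice were wild-type controls whose age is not stated. All libraries carry the strain label B6D2F1 and the genotype label wild-type. In what follows, Space and Ground mice together are called pups.

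Total counts ranged from 15407450 to 20562351 per library. In each group, replicates numbered 1 to 3 had Xist at 9.82 CPM or less and replicates numbered 4 to 6 had it at 702 CPM or more, while Uty, Kdm5d, Eif2s3y and Ddx3y, 4 genes of the Y chromosome, summed to between 1822 and 2482 counts in the former and to between 0 and 26 counts in the latter. The labels give no sex, but the study analysed pups of both sexes, so by these genes the replicate ranges match sex, and the number and the sex cannot be told apart. CPM denotes counts per 10⁶ of a library size scaled with TMM factors, which correct for a few abundant genes that take up counts. All 8 hepatocyte markers listed (Apoa1, Apob, Cps1, Tat, Serpina1a, Cyp2e1, Pck1 and Ass1) were present in every library, with summed levels between 25349 and 39944 CPM. Markers of cholangiocytes, endothelium, Kupffer cells and stellate cells summed to between 12.7 and 196 CPM in each list, and the blood list, of 4 haemoglobin genes and Alas2, reached 722 CPM. Haploid germ cell markers were at 4.75 CPM or less except in Space replicate 6, where they summed to 46.1 CPM. In bulk liver, fewer cells of a type and less RNA per cell cannot be told apart.

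Alb, Afp and Afm lie head to tail on the plus strand of chromosome 5. In mm10 with the GENCODE M21 annotation, Alb (ENSMUSG00000029368) spans chr5:90460897-90476602, Afp (ENSMUSG00000054932) spans chr5:90490737-90508907 and Afm (ENSMUSG00000029369) spans chr5:90518932-90553543. The gap between Alb and Afp is 14134 bases and that between Afp and Afm is 10024 bases. Gc (ENSMUSG00000035540) lies 1.003 Mb from Alb on the minus strand, at chr5:89417522-89457898. The gene models Gm43449 and Gm42109 overlap Afp and Afm on the opposite strand, and the strand setting of the counting is not stated, so reads of these pairs may not be separable.

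Liver promoters of this family are known for binding sites of C/EBP proteins and of the PAR bZIP proteins, whose founding member Dbp was named after a site in the Alb promoter. The 250 bases before the RefSeq start of the 4 related genes are shown because 3 of the 4 varied together across the libraries. They are given 5′ to 3′ on the strand of the gene, in GRCm38.p6, with 2 motifs in capitals, searched on both strands: TTNNGTAA for a PAR bZIP or C/EBP-like site and CCAAT. The windows are chr5:90460620-90460869 for Alb, chr5:90490464-90490713 for Afp, chr5:90518699-90518948 for Afm and chr5:89457899-89458148 for Gc.
Alb: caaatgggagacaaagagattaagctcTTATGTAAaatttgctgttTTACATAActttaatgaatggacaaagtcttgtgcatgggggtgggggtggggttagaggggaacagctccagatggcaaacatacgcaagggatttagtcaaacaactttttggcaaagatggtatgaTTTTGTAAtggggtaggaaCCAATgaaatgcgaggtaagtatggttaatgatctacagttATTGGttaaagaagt
Afp: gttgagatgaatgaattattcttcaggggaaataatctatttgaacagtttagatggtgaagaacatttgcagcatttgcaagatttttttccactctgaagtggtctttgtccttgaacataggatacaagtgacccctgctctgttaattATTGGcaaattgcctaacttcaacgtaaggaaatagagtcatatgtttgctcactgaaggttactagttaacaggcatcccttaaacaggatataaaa
Afm: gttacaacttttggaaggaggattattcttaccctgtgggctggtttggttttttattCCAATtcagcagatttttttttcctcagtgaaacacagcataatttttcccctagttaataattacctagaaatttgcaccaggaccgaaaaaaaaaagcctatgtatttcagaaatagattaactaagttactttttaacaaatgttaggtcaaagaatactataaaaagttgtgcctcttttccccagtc
Gc: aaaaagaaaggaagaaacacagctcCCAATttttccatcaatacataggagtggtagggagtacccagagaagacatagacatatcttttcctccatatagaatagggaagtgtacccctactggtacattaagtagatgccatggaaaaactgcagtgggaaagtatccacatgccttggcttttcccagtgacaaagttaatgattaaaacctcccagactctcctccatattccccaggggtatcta

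Alb held TTNNGTAA 3 times, at positions -223 to -216, -204 to -197 and -75 to -68 from the start. Afp, Afm and Gc held it 0 times, and 8.09% of all 32851 promoters in the RefSeq table held it in the same window. CCAAT occurred in each of the 4 windows and in 33.8% of all promoters. A match is a description of letters and not a bound site, and a window without one says nothing about a factor.

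Alb was the most abundant gene in each of the 18 libraries. In Space mice it stood at 61705, 59510 and 60391 CPM in replicates 1 to 3 and at 250897, 195157 and 216092 CPM in replicates 4 to 6. In Ground mice it stood at 55045, 59777 and 48870 CPM in replicates 1 to 3 and at 195552, 272796 and 341539 CPM in replicates 4 to 6. In BDF1 mice the values were 38351, 49125 and 47118 CPM in replicates 1 to 3 and 64844, 57322 and 75122 CPM in replicates 4 to 6. The 6 pup libraries numbered 4 to 6 stood apart from the other 12 libraries, with 195157 CPM as the lowest of the former and 75122 CPM as the highest of the latter, and the Space and Ground ranges overlapped in either range of replicate numbers.

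As a share of all counts, Alb made 6.18 to 6.45% in Space replicates 1 to 3 and 17.6 to 19.4% in Space replicates 4 to 6. The corresponding shares were 5.49 to 6.39% and 18.8 to 24.1% in Ground mice and 4.47 to 5.47% and 6.72 to 8.03% in BDF1 mice. The 95% Wilson interval of a share was at most 0.212% of its value to either side, which covers counting error only. The mean CPM of replicates 4 to 6 was 3.65 times that of replicates 1 to 3 in Space mice, 4.95 times in Ground mice and 1.47 times in BDF1 mice. Within replicates 4 to 6, Space mice had 3.36 times and Ground mice 4.11 times the mean of BDF1 mice. Within replicates 1 to 3 the ratios to BDF1 were 1.35, with ranges that did not overlap, and 1.22, with ranges that did. No test is given for these ratios, since Alb led to the choice of the genes.

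**Figure D1:**
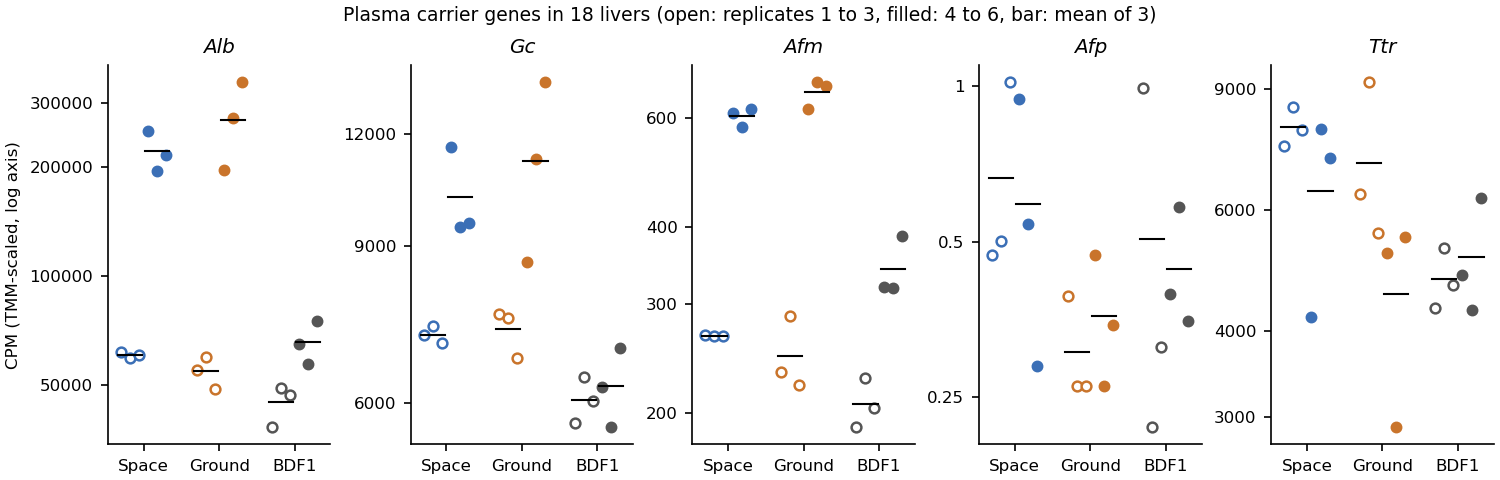
Level of each carrier gene in 18 livers, in CPM on a log axis that differs between panels. Each point is 1 library (open, replicates 1 to 3; filled, replicates 4 to 6) and each bar is the mean of 3 libraries. Alb and Afm of pup replicates 4 to 6 lie above all other libraries, while Afp stays between 0.219 and 1.01 CPM and Ttr shows no such step.

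Afm, a close relative of Alb, varied with it at a far lower level. In Space mice Afm stood at 267.2, 266.5 and 266.8 CPM in replicates 1 to 3 and at 612, 581 and 621 CPM in replicates 4 to 6. In Ground mice it stood at 233, 287 and 222 CPM and then at 621, 686 and 676 CPM. In BDF1 mice it stood at 189.8, 228 and 203 CPM and then at 320.2, 319 and 388 CPM. Replicates 4 to 6 were above replicates 1 to 3 in every group, by 2.27 times in Space, 2.67 times in Ground and 1.65 times in BDF1 mice, and the 6 pup libraries among them were the highest of the 18.

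Over all replicates Afm did not pass the test between any groups. In edgeR's quasi-likelihood fit with Benjamini-Hochberg adjustment over 12847 genes, the log2 change was -0.06 (SE 0.34, adjusted p = 0.976) for Space against Ground, 0.67 (SE 0.34, adjusted p = 0.273) for Space against BDF1 and 0.73 (SE 0.34, adjusted p = 0.233) for Ground against BDF1. In these comparisons 0%, 3.80% and 3.81% of all genes passed an adjusted p of 0.05, and of Afm, Gc and Ttr 0 of 3 passed in each. For Space against Ground 1186 genes had an unadjusted p under 0.05, DESeq2 called 26 genes, and neither Afm, Gc nor Ttr was among them. Same-numbered libraries deviated together from their group means (median r = 0.487), but no more than libraries with other numbers of the same range (median r = 0.529). A pairing by number is therefore not shown. With the replicate number as a block Afm was called in both comparisons with BDF1, at 0.59 (adjusted p = 0.0177) for Space and 0.60 (adjusted p = 0.0176) for Ground.

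Fitted within replicates 4 to 6 alone, Afm rose by 0.81 on the log2 scale in Space against BDF1 (SE 0.13, adjusted p = 0.0148) and by 0.95 in Ground against BDF1 (SE 0.13, adjusted p = 0.00623), where 4.39% and 6.89% of all genes were called. Fitted within replicates 1 to 3 alone, it was 0.37 higher in Space (adjusted p = 0.0756) and 0.25 higher in Ground (adjusted p = 0.247), against 8.56% and 4.40% of all genes called. Space against Ground differed by -0.13 within replicates 4 to 6 and by 0.12 within replicates 1 to 3 and was called in neither edgeR fit, with 0% and 0.110% of all genes called. The question whether the difference from BDF1 depended on the replicate numbers was tested with an interaction term over 13356 genes. For Ground the term was 0.69 (SE 0.17, adjusted p = 0.0412), with 2.74% of all genes called. This call was lost with total-count scaling (0.29, adjusted p = 0.270), with the replicate block (0.70, adjusted p = 0.0654), without a filter on low counts (0.67, adjusted p = 0.0789) and when 13 of the 18 libraries were left out one at a time (adjusted p up to 0.114). It was kept without Space replicate 4, Ground replicates 2 or 4, or BDF1 replicates 1 or 6. For Space the term was 0.45 (SE 0.17, adjusted p = 0.164), with 3.19% of all genes called, and the difference of these terms between Space and Ground was -0.24 (SE 0.17, adjusted p = 0.789), with 0% called and 1038 genes at an unadjusted p under 0.05. Limma voom with quality weights, by contrast, called the Afm term for Space (adjusted p = 0.0252).

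Gc, the vitamin D carrier, ranked between 8 and 17 among all genes by counts, and its values also separated pup replicates 4 to 6 from the other libraries. In Space mice it stood at 7158, 7312 and 7003 CPM in replicates 1 to 3 and at 11607, 9459.6 and 9535 CPM in replicates 4 to 6. In Ground mice it stood at 7558, 7474 and 6745 CPM and then at 8628, 11252 and 13712 CPM. In BDF1 mice it stood at 5704, 6417 and 6042 CPM and then at 6251, 5644 and 6915 CPM. Replicates 4 to 6 exceeded replicates 1 to 3 by 1.43 times in Space and by 1.54 times in Ground without overlap, while in BDF1 mice the ratio was 1.04 and the ranges overlapped.

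Gc was 0.49 higher on the log2 scale in Space than in BDF1 mice (SE 0.18, adjusted p = 0.128) and 0.58 higher in Ground than in BDF1 mice (SE 0.18, adjusted p = 0.0769), neither of which passed in edgeR. Space and Ground differed by -0.09 (SE 0.18, adjusted p = 0.922). Within replicates 4 to 6 the values were 0.69 (adjusted p = 0.103) and 0.83 (adjusted p = 0.0522), and within replicates 1 to 3 they were 0.24 (adjusted p = 0.251) and 0.25 (adjusted p = 0.269). The interaction terms were 0.45 (adjusted p = 0.333) for Space and 0.58 (adjusted p = 0.228) for Ground. Gc was called by DESeq2 in Ground against BDF1 (0.58, adjusted p = 0.0153) and by edgeR in both comparisons with BDF1 when the range of the replicate numbers (1 to 3 or 4 to 6) was a covariate (0.46, adjusted p = 0.0483, and 0.54, adjusted p = 0.0233). Limma voom with quality weights called the Gc interaction term for Ground (adjusted p = 0.0385).

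Ttr, the carrier of thyroxine and retinol that is no relative of albumin, did not show the pattern of Alb. Ttr (ENSMUSG00000061808) lies on chromosome 18, at chr18:20665280-20674321 of mm10 on the plus strand, and ranked between 9 and 48 among all genes by counts. In Space mice it stood at 7432, 8471 and 7839 CPM in replicates 1 to 3 and at 4186, 7858 and 7124 CPM in replicates 4 to 6. In Ground mice it stood at 6315, 9190.1 and 5552 CPM and then at 5191, 2898 and 5473 CPM. In BDF1 mice it stood at 4309.7, 5284 and 4656 CPM and then at 4822, 4290.0 and 6251 CPM. The 3 Ground libraries numbered 4 to 6 lay below the 3 numbered 1 to 3, at 0.64 times their mean. The corresponding ratio was 0.81 in Space mice, with overlap, and 1.08 in BDF1 mice, with overlap. Per 10⁶ total counts the ratio in Space mice was 0.67, without overlap.

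Over all replicates Ttr differed by 0.31 on the log2 scale between Space and Ground (SE 0.22, adjusted p = 0.702), by 0.54 between Space and BDF1 (SE 0.22, adjusted p = 0.170) and by 0.23 between Ground and BDF1 (SE 0.22, adjusted p = 0.604) in edgeR. Within replicates 1 to 3 it rose by 0.74 in Space against BDF1 (SE 0.19, adjusted p = 0.0357), and it was 0.56 higher in Ground (adjusted p = 0.121). Within replicates 4 to 6 the values were 0.31 and -0.18, and neither passed. The interaction terms were -0.42 (adjusted p = 0.602) for Space and -0.75 (adjusted p = 0.336) for Ground, so a change of direction with the replicate numbers was not shown. Limma voom with quality weights called Ttr in Space against BDF1 (0.62, adjusted p = 0.0206).

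**Figure D2:**
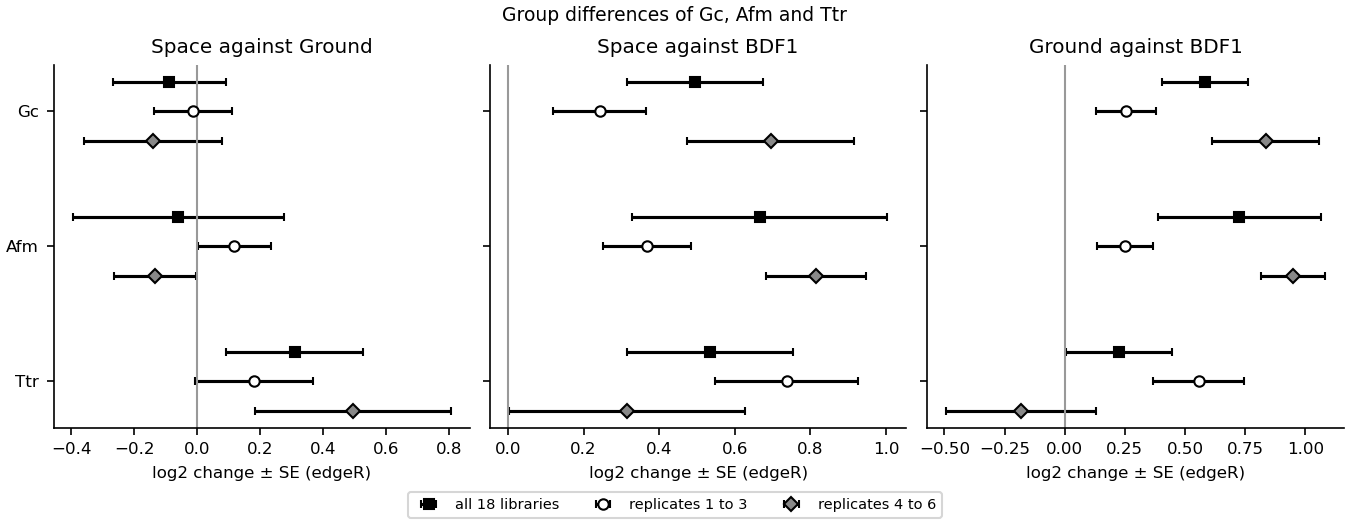
Log2 change of Gc, Afm and Ttr in each pairwise comparison, from edgeR fits of all 18 libraries (squares), replicates 1 to 3 (open circles) and replicates 4 to 6 (diamonds), with bars of 1 SE. Gc and Afm lie to the right of 0 in both comparisons with BDF1, further in replicates 4 to 6 than in 1 to 3, whereas Ttr in Ground lies on either side of 0.

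Serpina6, which encodes the corticosteroid carrier, was at 45519 CPM in Space replicate 4, 44766 CPM in Ground replicate 5 and 30906 CPM in Ground replicate 6, against at most 998 CPM elsewhere. Ttr was 4186, 2898 and 5473 CPM in these 3 libraries, and the 3 highest values of Alb and of Gc in all 18 libraries were in them with TMM scaling. Per 10⁶ total counts, Space replicate 6 exceeded Space replicate 4 in Alb (194455 against 188943) and Ground replicate 5 in Gc (8581 against 8559). With the 3 libraries left out, a choice made after seeing the data, Ttr was called in Space against BDF1 (0.65, adjusted p = 0.0279) and the Afm interaction in Ground was not (0.59, adjusted p = 0.149). The Alb log2 change against BDF1 was 1.35 in Space and 1.55 in Ground with all libraries, and 1.11 and 0.70 without the 3. Alb in Space against Ground turned from -0.21 to 0.41 without them. These fits had no term for the replicate range. Of replicates 4 to 6 they kept Space 5 and 6 but only Ground 4, so the ranges were no longer balanced between groups. Alb in these libraries was at 195157 and 216092 CPM in Space and 195552 CPM in Ground. The turn is therefore not shown to be a difference between the groups. Afm and Gc turned from -0.06 and -0.09 to 0.24 and 0.10, and neither was called.

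Afp was at the edge of detection. It had 8, 8, 19, 12, 9 and 5 counts in Space, 8, 5, 5, 8, 4 and 5 counts in Ground and 21, 4, 6, 8, 13 and 7 counts in BDF1 replicates 1 to 6. These counts correspond to 0.219 to 1.01 CPM, where 3 counts, the most that a count of 0 allows, correspond to 0.134 to 0.236 CPM. Over 6 replicates the groups overlapped, and a 95% Wilson interval reached up to 157% above and 61.1% below the value. Within replicates 1 to 3, Space mice had 0.471 to 1.01 CPM and Ground mice 0.263 to 0.392 CPM, without overlap and with a ratio of 2.16, which rests on 8, 8 and 19 counts against 8, 5 and 5. Afp did not pass the filter on low counts in the comparisons between groups, and in the interaction fit its terms had an SE of at least 0.78. With no filter, over 21614 genes, edgeR gave Afp a log2 change of 0.89 in Space against Ground (SE 0.39, unadjusted p = 0.0345, adjusted p = 0.588), and it passed in none of the 3 pairwise comparisons. A list of other genes of fetal liver (H19, Igf2, Gpc3, Dlk1, Lin28b, Igf2bp3, Sox9 and Cd24a), of which Sox9 also marks adult cholangiocytes, summed to between 4.89 and 22.9 CPM, and of the 4 tested 0 passed in any pairwise comparison, beside 0%, 3.80% and 3.81% of all genes. Igf2, a fetal growth factor, was at 0.211 to 0.392 CPM in Ground replicates 1 to 3 and at 0.944 to 20.8 CPM in Ground replicates 4 to 6. The Space ranges were 0.374 to 0.751 and 0.840 to 5.81 CPM, and BDF1 mice had at most 0.693 CPM. The Igf2 log2 change in Ground against BDF1 was 3.87 (SE 1.09, adjusted p = 0.0537) in edgeR and rests on Ground replicates 4 to 6.

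Per kilobase of exon, the order of the members by their mean CPM per kb over 18 libraries was Alb at 50982, Ttr at 5019, Gc at 4349, Afm at 128 and Afp at 0.142. Ttr and Gc overlapped, with 2444 to 7749 CPM per kb for Ttr and 3059 to 7432 CPM per kb for Gc, and the other neighbours in this order did not overlap. Gc was above Ttr in each of Ground replicates 4 to 6, with means of 6069 and 3812 CPM per kb, and in Space replicate 4, with 6291 and 3530 CPM per kb, while Ttr was above Gc in every other library. Together the 5 genes made 5.65 to 9.48% of counts in BDF1 mice, 6.90 to 8.20% in pup replicates 1 to 3 and 19.2 to 25.5% in pup replicates 4 to 6.

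Ratios of counts within a library do not depend on the scaling. The Alb to Gc ratio was 8.14 to 8.62 in Space and 7.24 to 8.0 in Ground replicates 1 to 3, and 20.6 to 22.7 and 22.7 to 24.9 in replicates 4 to 6. In BDF1 mice it was 6.72 to 7.80 and 10.2 to 10.9. The ratio was higher in replicates 4 to 6 than in 1 to 3 in all groups without overlap, and the pup values of replicates 4 to 6 lay above all others. The Alb to Afm ratio was 208 to 236 in pup replicates 1 to 3 and 315 to 505 in pup replicates 4 to 6, whereas in BDF1 mice it was 202 to 232 in replicates 1 to 3 and 179.6 to 203 in replicates 4 to 6, with overlap. The Alb to Ttr ratio was 6.50 to 8.80 in pup replicates 1 to 3, 24.8 to 94.1 in pup replicates 4 to 6 and 8.90 to 13.4 in BDF1 mice. Each ratio shows unequal levels of 2 genes and not which of them moved.

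**Figure D3:**
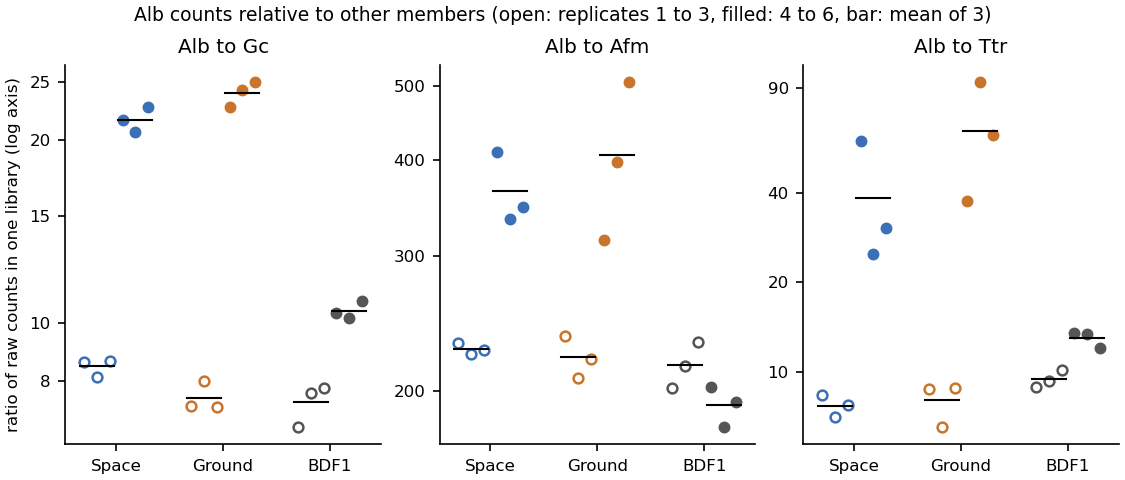
Ratio of Alb counts to Gc, Afm and Ttr counts in each library, on log axes. Open points are replicates 1 to 3, filled points are replicates 4 to 6 and bars are means of 3. All 3 ratios are highest in pup replicates 4 to 6, where Alb to Ttr reaches 94.1.

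The size of the differences depended on the scaling, and Alb alone took up to 24.1% of the counts of a library. TMM factors were 0.705 to 0.960 in pup replicates 4 to 6 and 1.04 to 1.17 in the other 12 libraries. In replicates 4 to 6 the ratio of Space to BDF1 means for Alb was 3.36 with TMM, 2.90 per 10⁶ counts of the other genes and 2.53 per 10⁶ total counts, and that of Ground to BDF1 was 4.11, 3.40 and 2.88. For Afm the ratios with TMM and with total counts were 1.77 and 1.34 in Space and 1.93 and 1.39 in Ground, and for Gc they were 1.63 and 1.23 in Space and 1.79 and 1.26 in Ground, all without overlap. For Ttr they were 1.25 and 0.97 in Space, which crosses 1, and 0.88 with overlap and 0.64 without overlap in Ground.

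**Figure D4:**
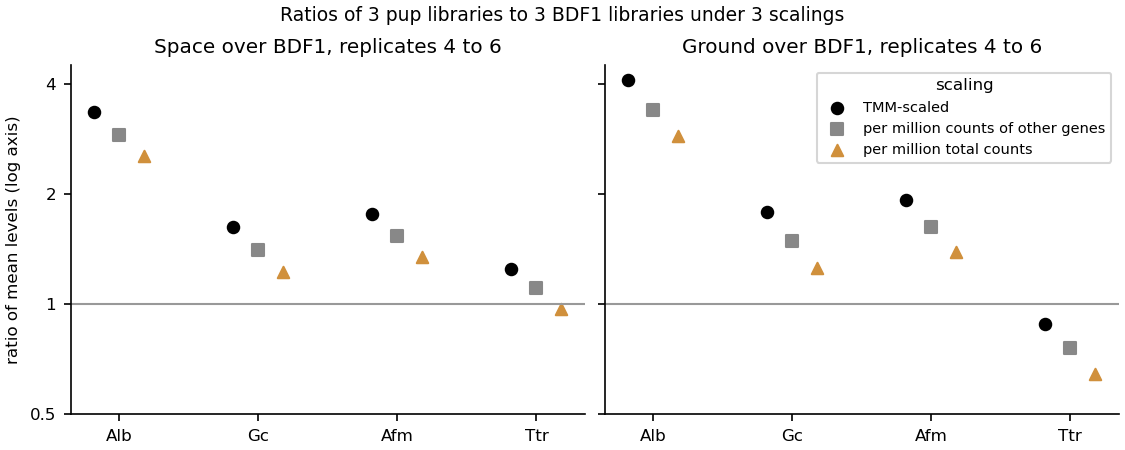
Ratio of the mean of 3 pup libraries to the mean of 3 BDF1 libraries in replicates 4 to 6, on a log axis, for Alb, Gc, Afm and Ttr under 3 scalings. Total-count scaling gives the lowest ratio for each gene, and Alb, Gc and Afm stay above 1 under each scaling, while Ttr in Space goes from 1.25 to 0.97.

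Across the 18 libraries the log2 CPM of Alb correlated with that of Afm (Pearson r = 0.97) and Gc (r = 0.94) and not with that of Ttr (r = -0.21), as a description without a test, since the points share groups, replicate ranges and scaling. With the means of group and replicate range removed the values were 0.67, 0.96 and 0.07, and with total-count scaling they were 0.93, 0.85 and -0.56. Among 7481 other genes averaging 10 CPM or more, the patterns most like Alb were those of Kng1 (r = 0.98), which encodes kininogen, Hgfac (r = 0.97), an activator of hepatocyte growth factor, Lrpap1 (r = 0.96), a chaperone of lipoprotein receptors, Ppp2r2d (r = 0.96), a phosphatase subunit, and Ifi27l2b (r = 0.95), an interferon-induced gene. Kng1 averaged 2097 and 4901 CPM in Space replicates 1 to 3 and 4 to 6, 2068 and 5333 CPM in Ground and 1859 and 2326 CPM in BDF1. Ifi27l2b averaged 2.08 and 29.1 CPM in Space, 2.52 and 25.4 CPM in Ground and 2.16 and 2.88 CPM in BDF1. The closest to Afm were Kng2, Ugt1a5 and Hgfac (r of 0.97, 0.96 and 0.96), and the closest to Gc were Hsd11b1, Fetub and Ctsz (r of 0.98, 0.98 and 0.96). The closest to Ttr were Khk, which encodes ketohexokinase, S100a1 and Mif (r of 0.92, 0.91 and 0.90). For Afp, whose values rest on few counts, the highest r was 0.66, with Snrpa1, followed by Mphosph8 and Vps53 at 0.61 and 0.60.

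**Figure D5:**
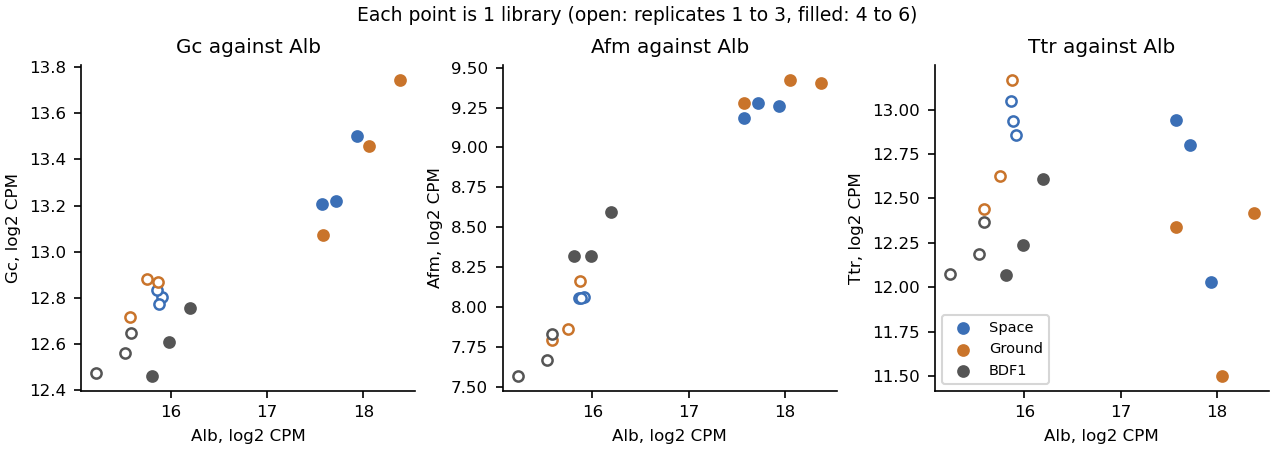
Log2 CPM of Gc, Afm and Ttr against log2 CPM of Alb, with 1 point for each library (open, replicates 1 to 3; filled, replicates 4 to 6). Gc and Afm increase with Alb (r of 0.94 and 0.97), and Ttr lies between 2898 and 7858 CPM in the 6 pup libraries with the most Alb (r = -0.21).

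Genes around these carriers were examined in lists. Of 13 other plasma carriers made by liver, 12 were tested and 0 were called in any pairwise comparison, although their median log2 change against BDF1 was 0.42 in Space and 0.65 in Ground, beside a median of at most 0.02 for all genes and the 0%, 3.80% and 3.81% of all genes called. Pup replicates 4 to 6 lay above the other 12 libraries, as they did in 1.94% of all genes tested, in Trf, the iron carrier transferrin (19163 to 48143 CPM against at most 15628 CPM), and in Tcn2, a carrier of vitamin B12 (254 to 304 CPM against at most 205 CPM). By contrast Rbp4, the retinol carrier that travels with transthyretin, stood at 2763 ± 209 CPM (SD, n = 6) in Space, 2878 ± 441 CPM in Ground and 2486 ± 157 CPM in BDF1 mice. Of 7 genes for receptors and uptake in the table, 6 were tested and 0 were called, Fcgrt among them, the receptor that rescues albumin from breakdown, at 126 ± 10.1, 136 ± 12.3 and 138 ± 22.6 CPM. Of 6 partners in the handling of the ligands, 5 were tested. Dio1, the deiodinase that acts on thyroxine, fell by 1.36 on the log2 scale in Space against BDF1 (SE 0.31, adjusted p = 0.0196), and was 0.81 lower in Ground (adjusted p = 0.137). The other 4 were not called. All 4 neighbours of the cluster in the table (Albfm1, Ankrd17, Rassf6 and Cox18) were tested and 0 were called.

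Of 17 regulators of promoters of this family, all were tested and 0 were called between groups, beside 0%, 3.80% and 3.81% of all genes in the 3 comparisons. In 4 of them replicates 1 to 3 and 4 to 6 did not overlap in any group, as in 9.70% of all genes tested: Dbp, Tef, Cebpa and Nfil3. Dbp is a PAR bZIP factor with a daily rhythm. It stood between 0.836 and 5.98 CPM in replicates 1 to 3 and between 72.8 and 204.5 CPM in replicates 4 to 6. In replicates 4 to 6 the BDF1 libraries had 96.0, 200.5 and 204.5 CPM and the pups 72.8 to 107 CPM. Tef, another PAR bZIP factor, showed the same split, with 20.7 to 69.0 CPM in replicates 1 to 3 and 109 to 191 CPM in replicates 4 to 6. Hlf, the other PAR bZIP factor listed, was at 34.3 to 39.9 CPM in replicates 1 to 3 and 41.1 to 59.6 CPM in replicates 4 to 6 of Space mice, but its ranges overlapped in Ground and BDF1 mice. Cebpa, which encodes a C/EBP protein, was at 260 to 365 CPM in replicates 1 to 3 and 410.3 to 631 CPM in replicates 4 to 6. Nfil3, a repressor that binds the sites of PAR bZIP factors, went the other way, with 44.8 to 92.2 CPM in replicates 1 to 3 and 9.49 to 23.6 CPM in replicates 4 to 6. The replicate numbers, Xist and these 4 genes split the libraries in the same way and cannot be told apart here. Pup replicates 4 to 6 lay above the other 12 libraries in 0 of the 17 regulators, beside 1.94% of all genes. They lay below them in 1, Zbtb20, at 45.5 to 68.1 CPM against 68.9 CPM or more. The share of all genes with this lower split was not computed.

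Of the 8 hepatocyte markers, Apoa1, the main protein of HDL, rose in Space (1.01, adjusted p = 0.0335) and Ground (0.94, adjusted p = 0.0460) against BDF1, and the other 7 were not called. Of 5 endothelial markers, Clec4g fell by 0.83 in Space against BDF1 (adjusted p = 0.0199) and Stab2 rose by 0.98 in Ground against BDF1 (adjusted p = 0.0261). Of 5 markers each, 0 were called for cholangiocytes, Kupffer cells, stellate cells and blood. With 0%, 3.80% and 3.81% of all genes called, such counts in lists of 5 say nothing particular about a list. The summed Kupffer markers were 106 to 164 CPM in pup replicates 4 to 6 and 58.4 to 153 CPM in the other 12 libraries, with Clec4f, Vsig4, Timd4, Cd5l and Adgre1 all detected. The blood list was 102 to 722 CPM and 32.3 to 365 CPM in the same libraries. Its 4 haemoglobin genes alone summed to 68.2 to 653 CPM and 20.7 to 162 CPM. Alas2, the remaining gene of the list, went the other way in pups. It was at 14.9 to 92.0 CPM in pup replicates 4 to 6 and at 11.6 to 234 CPM in the other 12 libraries. Within pup replicates 1 to 3 it was at 192 to 206 CPM in Space and 195 to 234 CPM in Ground. Of the pancreas list, 1 of 5 genes, Cela1, was tested and not called between groups, and the other 4 had at most 3 counts. Cela1 separated the libraries as Alb did but in the other direction, with 6.49 to 18.7 CPM in pup replicates 4 to 6 and 33.4 to 55.9 CPM in the other 12 libraries. The part of other cell types in the levels of the carriers was not tested.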

How the data were processed

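Liver RNA of 18 mice was measured. Per the labels, stranded mRNA libraries were sequenced in paired-end mode. The methods of the study, written for its RNA sequencing in general, give single reads, another library kit and an earlier version of cutadapt instead, and which of them hold for these livers was not settled. The submitters' processing notes list bcl2fastq 2.20, cutadapt 4.6, HISAT2 2.2.1, HTSeq 2.0.2 and mm10. The options of counting are not given in the sources used here, so reads of overlapping genes may be split in ways that were not checked. The authors deposited raw counts per gene, whole numbers without normalization, for 32285 genes, of which 32158 had an identifier in GENCODE M21.

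Groups and replicate numbers came from the labels. After filterByExpr and TMM scaling, the quasi-likelihood test of edgeR 4.0.16 was run in R 4.3.3, with group alone over 18 libraries (12847 genes) or with 6 cells of group and replicate range (1 to 3 or 4 to 6) for the interaction terms (13356 genes). P-values were Benjamini-Hochberg adjusted over all genes tested and called under 0.05, and standard errors were obtained by dividing the size of the log2 change by the root of F. The group fit was tested on simulated data for Space against BDF1, with 200 genes changed in each simulation, where it recovered 64.5% of 2-fold changes (12714 genes in the fit) and 93.5% of 4-fold changes (12725 genes). Log2 CPM used a prior count of 2. Total counts of 15407450 to 20562351 make 1 count worth 0.0447 to 0.0785 CPM, and intervals and limits cover counting error only. No pair of replicates was a duplicate, as chi-square per gene was 10.5 or more in each pair. Libraries with the same replicate number deviated together, with correlations of their deviations from the group means between 0.231 and 0.654 over 18 pairs. Pairs with another number of the same range had a median of 0.529, against 0.487 for the same number. Alternatives were DESeq2 1.42.0, limma 3.58.1 voom with quality weights, other scalings and filters, the replicate block, the replicate range as a covariate, either range alone and leaving out each library. Leaving out 3 libraries with high Serpina6 was added after seeing the data.

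The members and gene lists were chosen with earlier results of these data known. The genes named are the 5 members, genes of each list that passed in a pairwise comparison (up to 4), and genes with the highest Pearson r to a member (5 for Alb, 3 for each other member) among genes averaging 10 CPM or more. The other genes named, such as Rbp4, Fcgrt, Trf, Tcn2, Igf2, Dbp, Tef, Hlf, Cebpa, Nfil3, Zbtb20, Alas2, Albfm1, Cela1, Serpina6, Xist and the genes that spell out a list, are outside this rule, and their values were known when they were picked. Not every gene of the lists is reported by name. Promoter sequences came from the RefSeq table for GRCm38.p6, with 4 genes matched and shown.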

Additional observations from a re-analysis of the deposited data

Results flagged for a closer look

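Ttr in Space replicate 4, at 4186 CPM, lay far below the other 5 Space libraries, which ranged from 7124 to 8471 CPM. Its gap to the nearest of them was 0.686 of the range of the group, above Dixon's 95% critical value of 0.625 for 6 samples. It was the only one of 30 sets of 6 values (5 genes, 3 groups, CPM and share of counts) to pass this limit, where chance gives about 1 in 20, or 1.5 sets.

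The Afm difference between Ground and BDF1 mice was larger in replicates 4 to 6 than in replicates 1 to 3, by 0.69 on the log2 scale in edgeR's interaction term (SE 0.17, adjusted p = 0.0412). All 3 Ground and all 3 BDF1 libraries numbered 4 to 6 were above their counterparts numbered 1 to 3. Adjusted p over the alternatives ran from 0.000848 to 0.270.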

How the results depend on the processing

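Of 573 alternative values for 21 results of Afp, Afm, Gc and Ttr, 520 kept their direction and side of the threshold, 17 lost a call, 14 gained one and 22 reversed. Of 165 values for Alb, which has no test, 4 had the other sign. The causes were not tested. Depth limits Afp. All genes called in Space against Ground numbered 0, against 26 in DESeq2, 14 in replicates 1 to 3 and 0 to 6 with a library left out (6 without Ground replicate 2, 2 without Space replicate 4). In Space against BDF1 they numbered 488, against 1019 in DESeq2, 1304 in voom, 281 unfiltered, 774 with the replicate block, 1330 with the covariate, 1090 in replicates 1 to 3 and 231 to 593 with a library left out. In Ground against BDF1 they numbered 489, against 1103 in DESeq2, 942 with total counts, 218 unfiltered, 843 with the block, 1442 with the covariate, 895 in replicates 4 to 6, 304 without the 3 Serpina6-high libraries and 141 to 667 with a library left out. The interaction called 426 genes for Space, against 835 in DESeq2, 1515 in voom, 230 with the block, 775 without the 3 libraries and 221 to 599 with one left out. It called 366 for Ground, against 750 in DESeq2, 739 in voom, 1499 with total counts, 145 with the block and 132 to 753 with one left out. Between Space and Ground it called 0, against 28 in DESeq2, 12 in voom, 8 unfiltered and 0 to 21 with one left out. The lowest counts came without BDF1 replicates 3, 4, 5 or 6.

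Of Afp, Afm, Gc and Ttr, 0 were called in Space against BDF1, against 1 in voom, with the block, in either replicate range or without the 3 libraries and 2 with the covariate. In Ground against BDF1 the count was 0, against 1 in DESeq2, with the block or in replicates 4 to 6 and 2 with the covariate. In the interaction it was 0 for Space, against 1 in voom (Afm). For Ground it was 1 (Afm), against 2 in voom (Afm and Gc), 0 with total counts, unfiltered, with the block or without the 3 libraries, and 0 to 1 with a library left out. With the replicate block no other call of a member changed. Alb in Space against Ground went from -0.21 to 0.16 in replicates 1 to 3, to 0.41 without the 3 libraries and to -0.45 to 0.15 with one left out, above 0 without Ground replicates 5 or 6. Reversals of the other members, none of them called, were Afm in Space against Ground (0.12 in replicates 1 to 3, 0.24 without the 3 libraries, -0.20 to 0.10 with one left out), Gc in Space against Ground (0.10 without the 3, -0.19 to 0.060), Ttr in Ground against BDF1 (-0.18 in replicates 4 to 6), the interaction of Afp for Space (-0.95 to 0.44) and for Ground (-0.26 in voom, -0.47 to 0.78), and that of Gc between Space and Ground (0.033 with total counts, 0.17 without the 3, -0.28 to 0.052). The Alb log2 change in Ground against BDF1 went from 1.55 to 0.27 in replicates 1 to 3.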
